A study of Homo sapiens with 12 samples.

Results

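The 2 lines of HEK cells compared here were measured without the inducer, and expression of the transgene in its absence was not tested. HEK is a human embryonic kidney cell line that grows fast, has an abnormal set of chromosomes and expresses markers of kidney precursors together with neuronal genes. Both are stable lines in which tetracycline is meant to switch on a TRPM7 transgene. The TRPM7 protein is a cation channel of the cell membrane, permeable to magnesium, calcium and zinc, and carries a kinase domain at its C-terminal end. One line carries the wild-type channel (the WT line) and the other a channel from which the C-terminal kinase domain was deleted, TRPM7DKD (the mutant line). Per the series design the mutant serves as the nonfunctional control. Both grew under 5 ug/mL blasticidin. Each group holds 3 Affymetrix arrays of total RNA, so 6 of the 12 arrays of the series enter the comparison, labelled as in the absence of tetracycline, over all 54613 probe sets that are not AFFX controls. The other 6 arrays are the same lines after 72 hours of tetracycline. The untreated differences do not use them, but the estimate of the spread and the choice of tested probe sets do. The labels do not say whether a line is 1 clone, or whether the 3 arrays of a group come from separate cultures. The p-values therefore measure only the spread between arrays, and the number of arrays limits their precision. That spread is 1 value per probe set from all 12 arrays, so the untreated and the tetracycline calls share it.

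A stable line is often grown from few cells that took up the vector, and it then keeps the expression state and the chromosome content of those cells. Lines made from the same parent can for that reason differ in silenced genes and in gained or lost chromosome segments, which shift many neighbouring genes together. Whether either line was cloned in this way was not tested, and DNA copy number was not measured here.

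Every level below is a log2 MAS5 signal, a summary of the short probes of 1 probe set, and every difference is the WT line minus the mutant line on that scale, so 1 unit is a doubling. Errors of differences are standard errors (SE) of the limma fit with n = 3 arrays per group, and errors of levels are SDs. Differences in mRNA level per cell and in the share of cells that express a gene cannot be told apart in such bulk samples. The median of all values in the table was 6.39, and a group mean below it is called dim here. Where 1 line is dim, the size of a difference rests on signals near the bottom of the scale and is not a measured ratio. Tests covered probe sets with at least 1 group mean above that median, and a gene was read from its brightest probe set.

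The line markers were present in both lines. Of 12 measured HEK line markers, 1 (SOX11) was dim in both, and the summed signal of the list spanned 16.4 to 16.6 on the WT line arrays and 16.4 to 16.5 on the mutant line arrays. The markers of blood cells were dim in both lines for 10 of 12 genes, of fibroblasts for 8 of 10, of endothelium for 6 of 9 and of mature kidney tubule for 7 of 10. The kidney precursor factor PAX2 read 7.53 ± 0.28 (SD, n = 3) in WT cells against 7.91 ± 0.18 in mutant cells.

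TRPM7 itself did not separate the lines on its brightest probe set. It read 8.68, 8.12 and 8.60 on the WT line arrays and 8.45, 8.47 and 8.25 on the mutant line arrays, so the groups overlapped and the difference was 0.07 ± 0.30 (limma adjusted p = 0.903). Its sign turned without WT untreated replicate 1 (-0.03) and without the replicate 3 arrays (-0.06). A dimmer TRPM7 probe set was lower in the WT line, with 6.19 ± 1.57 (SD, n = 3) against 8.06 ± 0.13 and a difference of -1.87 ± 0.57 (adjusted p = 0.0427), and the other tested one gave 0.16 ± 0.63 (adjusted p = 0.902). Whether these probes detect the transgene was not tested. Of 18 tested genes of the TRPM7 and magnesium transport list 1 was lower (5.56%), against 6.82% of all tested genes, and 0 were higher. It was CNNM3, of a family linked to magnesium efflux. CNNM3 read 8.94, 9.23 and 9.06 on the WT line arrays and 10.08, 10.24 and 10.04 on the mutant line arrays, a difference of -1.04 ± 0.17 (limma adjusted p = 0.00189). Its groups did not overlap.

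The lines nevertheless differed in many genes. Of 29553 tested probe sets 3807 passed a limma adjusted p of 0.05 (12.9%), with 1237 higher and 2570 lower in the WT line. With quantile normalization 3132 passed, of which 1358 were higher and 1774 lower, so the share of higher calls was 32.5% as deposited and 43.4% after that scaling. The median difference over all tested probe sets was -0.09 as deposited and 0.01 after quantile normalization. Counted by gene, 763 of 13067 were higher in the WT line (5.84%) and 891 were lower (6.82%), 1654 in all. At least 2-fold differences were more often lower in the WT line, with 400 genes lower and 67 higher. Of the called genes, 122 lower and 18 higher ones were dim in one of the lines. Leaving out mutant untreated replicates 1, 2 or 3 brought the probe sets called to 1634, 1611 and 2127, and leaving out each WT line array in turn gave 2630 to 3804. Of the 1654 genes 561 (33.9%) passed in each of these 6 fits, 234 of them higher and 327 lower in the WT line. The genes given below with their own values passed in each of those fits unless said otherwise. Overlap of the groups is read from the same arrays as the calls. The genes with the largest differences were also chosen among those without overlap. Statements below that groups were apart are therefore descriptions and add no separate support.

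The WT line arrays were the noisier ones and also differed in control signals. The median SD per probe set was 0.299 among WT line arrays, against 0.174 among mutant line arrays. For beta-actin the 3′ control exceeded the 5′ control, on the log2 scale, by 1.29, 1.04 and 0.632 on the WT line arrays and 0.288, 0.234 and 0.226 on the mutant line arrays (2-sided exact permutation p = 0.1, the smallest that 3 against 3 can give). For GAPDH the same comparison gave p = 0.6 (2-sided exact permutation test). The 18S ribosomal RNA control was 9.02, 8.94 and 7.29 against 6.94, 6.18 and 6.52 (exact p = 0.1). The part of these signals in the differences below was not tested.

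SPARC was bright in the mutant line and dim in the WT line. SPARC, also called osteonectin, is a secreted protein that binds collagen and calcium. It read 1.26, 2.28 and 1.53 on the WT line arrays and 11.14, 11.61 and 11.38 on the mutant line arrays. The WT line arrays were all close to the bottom of the scale and the mutant line arrays all far above the median, with a difference of -9.69 ± 0.53 (limma adjusted p = 4.15e-07). A second SPARC probe set gave 3.04 ± 1.03 (SD, n = 3) and 8.06 ± 0.16, a difference of -5.02 ± 0.77 (adjusted p = 0.00137). On the separate tetracycline arrays the brightest probe set differed by -8.37.

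3 more genes stood out in the same way, 2 of them on the X chromosome. ARMCX2, of a family of armadillo repeat proteins encoded on the X chromosome, read 5.79, 5.75 and 6.96 on the WT line arrays and 11.10, 10.95 and 11.09 on the mutant line arrays, a difference of -4.88 ± 0.70 (adjusted p = 0.000894, limma). CHRDL1, a secreted antagonist of bone morphogenetic proteins, read 6.71, 6.30 and 6.64 on the WT line arrays and 9.68, 9.65 and 9.55 on the mutant line arrays and differed by -3.08 ± 0.25 (limma adjusted p = 4.28e-05). In both, every WT line array lay below every mutant line array. PNMA8A, of the paraneoplastic antigen family, ran the other way with 8.90, 9.64 and 9.30 on the WT line arrays and 3.86, 5.45 and 3.98 on the mutant line arrays, a difference of 4.85 ± 0.50 (limma adjusted p = 0.000158). It was dim in the mutant line. On the tetracycline arrays ARMCX2, CHRDL1 and PNMA8A differed by -7.03, -3.32 and 4.51.

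The promoters of these 4 genes are shown because the genes were near or below the median signal in 1 line and well above it in the other, and because CG pairs, the sites of DNA methylation, are unevenly spread among them. Each is the 250 bases before the RefSeq start of the gene in GRCh38.p14, printed 5′ to 3′ on the strand of the gene, with CG in capitals. The motif CG reads the same on both strands.
SPARC promoter, chr5:151686916-151687165, strand minus: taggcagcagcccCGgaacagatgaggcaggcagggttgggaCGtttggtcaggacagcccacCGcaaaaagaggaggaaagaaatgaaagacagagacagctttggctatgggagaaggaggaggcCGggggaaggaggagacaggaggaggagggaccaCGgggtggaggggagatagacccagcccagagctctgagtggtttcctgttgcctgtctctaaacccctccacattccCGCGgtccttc
ARMCX2 promoter, chrX:101659851-101660100, strand minus: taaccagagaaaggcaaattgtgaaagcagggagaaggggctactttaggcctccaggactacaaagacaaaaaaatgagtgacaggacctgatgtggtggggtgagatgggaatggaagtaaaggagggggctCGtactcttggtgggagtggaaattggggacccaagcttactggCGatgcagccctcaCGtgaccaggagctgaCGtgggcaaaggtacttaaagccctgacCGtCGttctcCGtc
CHRDL1 promoter, chrX:110795818-110796067, strand minus: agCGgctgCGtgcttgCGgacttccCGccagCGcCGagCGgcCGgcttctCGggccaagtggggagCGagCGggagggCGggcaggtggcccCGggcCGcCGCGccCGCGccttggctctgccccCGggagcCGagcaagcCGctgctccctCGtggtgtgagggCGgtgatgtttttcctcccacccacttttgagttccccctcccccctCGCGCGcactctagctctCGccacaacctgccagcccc
PNMA8A promoter, chr19:46471564-46471813, strand minus: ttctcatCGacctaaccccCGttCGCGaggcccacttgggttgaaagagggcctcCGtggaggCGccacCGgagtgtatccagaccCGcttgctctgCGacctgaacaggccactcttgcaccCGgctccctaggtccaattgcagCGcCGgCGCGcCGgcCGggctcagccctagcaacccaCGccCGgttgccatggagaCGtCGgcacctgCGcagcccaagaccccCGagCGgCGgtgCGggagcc
CG occurred 7 times each before SPARC and ARMCX2, 27 times before CHRDL1 and 25 times before PNMA8A. Of 27305 promoters of this length in RefSeq, 93.6% hold at least 1 CG. The median number was 21 in all tested genes with a promoter, 22 in genes higher and 21 in genes lower in the WT line. It was 11 in the 61 genes with a promoter among the 71 called at least 4-fold lower, 20.5 in 6 of the 8 called at least 4-fold higher, and 11 over all 27305 promoters. These counts are a description of sequence, and methylation was not measured.

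**Figure D1:**
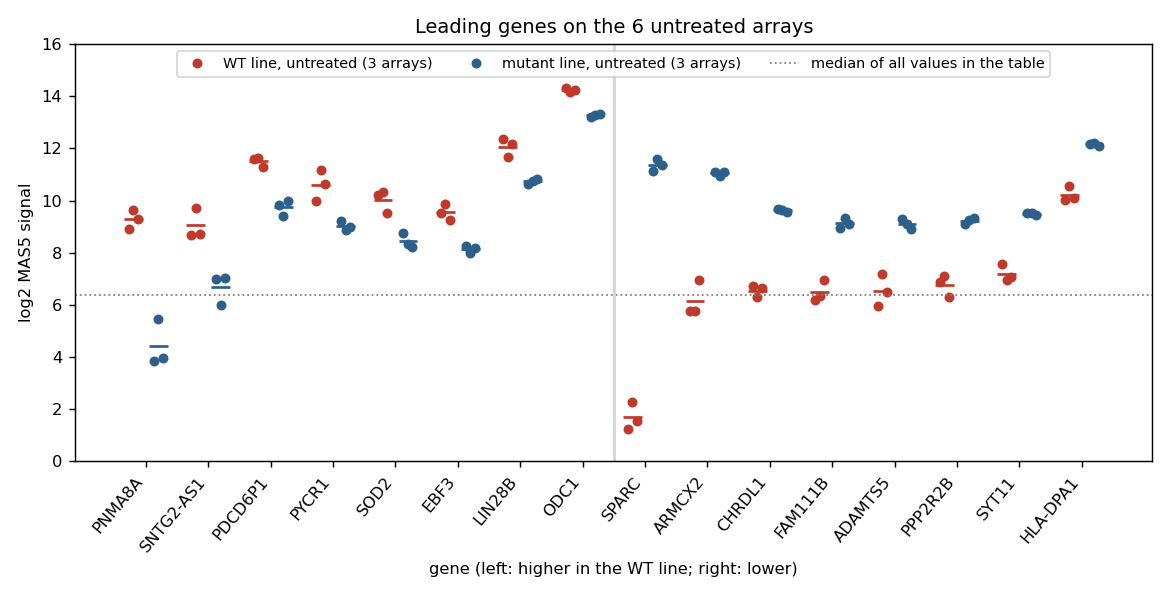
Log2 MAS5 signal of 16 leading genes on each of the 6 untreated arrays, as points, with the group mean as a bar; the 8 on the left were higher in the WT line and the 8 on the right lower. SPARC lies between 1.26 and 2.28 in the WT line and above 11 in the mutant line, and the dotted line is the median of all values, 6.39.

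All called genes of the extracellular matrix list were lower in the WT line, and most of the list was not called. Of 48 tested genes of the matrix and integrin list 8 were lower and 0 higher, against 6.82% and 5.84% of all tested genes. The median difference of the 48 was -0.20, against -0.02 over all tested genes, and 0.08 on the tetracycline arrays. Besides SPARC, the called members were the collagen genes COL2A1, COL6A2 and COL14A1, the laminin chains LAMB2 and LAMB3, the proteoglycan GPC3 and the integrin ITGA7. The cartilage collagen gene COL2A1 read 7.37, 7.42 and 7.23 on the WT line arrays and 9.01, 8.98 and 9.33 on the mutant line arrays, a difference of -1.77 ± 0.23 (limma adjusted p = 0.000599). GPC3, a glypican that sits on the cell surface and binds growth factors, read 8.80, 9.96 and 9.38 on the WT line arrays and 11.24, 11.30 and 10.95 on the mutant line arrays, a difference of -1.78 ± 0.24 (limma adjusted p = 0.000706). In both genes the arrays of the lines formed separate groups. COL6A2, a chain of the beaded collagen around cells, differed by -1.96 ± 0.34, and COL14A1 by -1.34 ± 0.19 (limma adjusted p = 0.0027 and 0.00073). On the tetracycline arrays COL2A1, GPC3, COL6A2 and COL14A1 differed by -1.90, -2.40, -1.56 and -1.08, while LAMB3 went from -3.70 untreated to 0.32. ADAMTS5, a protease that cuts the proteoglycan aggrecan and was not in that list, read 5.96, 7.18 and 6.51 on the WT line arrays and 9.29, 9.12 and 8.91 on the mutant line arrays, a difference of -2.56 ± 0.36 (limma adjusted p = 0.000862). Its 3 further tested probe sets were also lower, by -1.82 to -2.70. The matrix count stayed between 8 and 10 when any 1 untreated array was left out.

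Some other genes of the cell surface were also lower. Over all tested genes 6.82% were lower and 5.84% higher. In the list of other adhesion and guidance genes 7 of 36 were lower (19.4%) and 0 higher. Its median of -0.03 is close to that of all genes. Among 5 tested clustered protocadherins 2 were lower (40%). Protocadherins are cadherin-like adhesion proteins of neurons and precursors. PCDHB2 read 5.90, 6.25 and 6.49 on the WT line arrays and 8.63, 8.43 and 8.90 on the mutant line arrays, a difference of -2.44 ± 0.32 (limma adjusted p = 0.00054). PCDH9, outside the clusters, differed by -1.18 ± 0.21 and PCDH8 by -1.59 ± 0.28 (limma adjusted p = 0.00308 and 0.00305). The adhesion list held 4 calls without mutant untreated replicate 1. Among voltage-gated and related channels 6 of 28 were lower (21.4%) and 0 higher, with a median of -0.34. They included SCN4B, an auxiliary subunit of sodium channels, at -3.17 ± 0.48 (limma adjusted p = 0.00126), and KCNMA1, the large-conductance potassium channel, at -2.34 ± 0.42 (adjusted p = 0.00333, limma). Both were dim in the WT line, and 2 of the 6 channel calls were left without mutant untreated replicate 2 and 3 with quantile normalization.

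Epithelial junction genes went both ways. KRT8, a keratin of simple epithelia, read 10.45, 10.65 and 10.74 on the WT line arrays and 11.82, 11.74 and 11.68 on the mutant line arrays, a difference of -1.14 ± 0.18 (limma adjusted p = 0.00142). JUP, plakoglobin, was lower too, at -0.92 ± 0.17. Desmoplakin, DSP, which links keratin filaments to desmosomes, was higher, at 12.99, 12.43 and 12.06 on the WT line arrays and 11.29, 11.17 and 11.45 on the mutant line arrays with a difference of 1.19 ± 0.19 (limma adjusted p = 0.00149). The groups were separate in all 3 genes. Of 31 tested genes of this list 3 were higher (9.68%) and 4 lower (12.9%), against 5.84% and 6.82% of all tested genes. The median was -0.08.

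**Figure D2:**
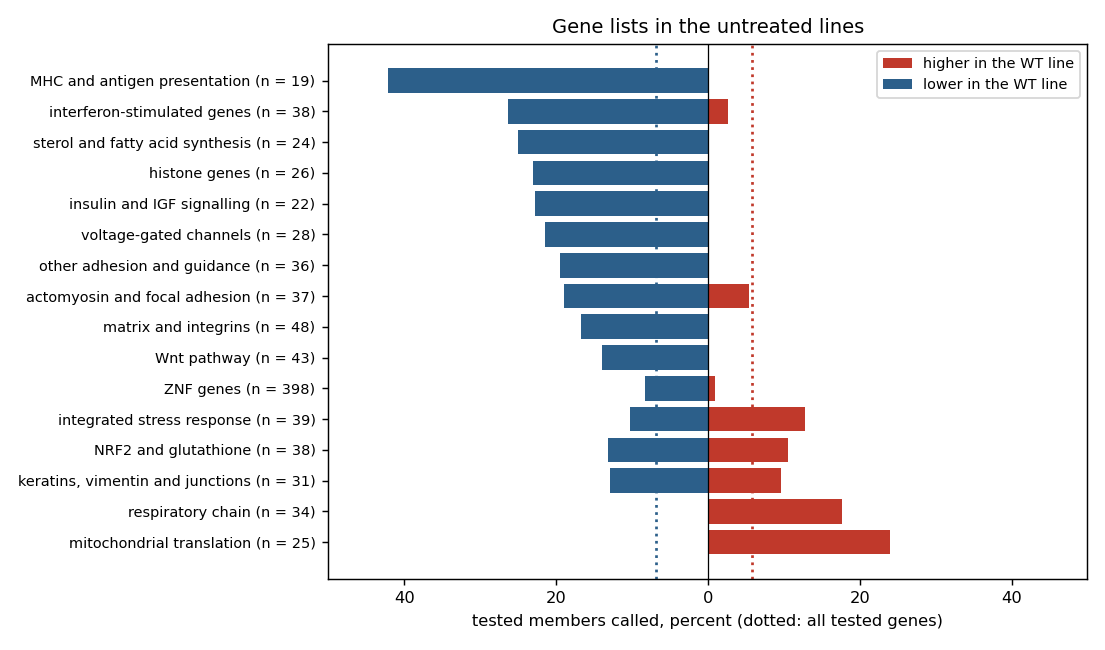
Percent of the tested members of 16 gene lists that were called higher (bars to the right) or lower (bars to the left) in the WT line, with the number of tested members in brackets and dotted lines at the share of all tested genes, 5.84% higher and 6.82% lower. The 16 are a selection from the lists counted, and some lists left out had few calls or none. The MHC list has 8 of 19 members lower, and the respiratory chain and mitochondrial translation lists have calls to the right and none to the left.

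Signalling genes lower in the WT line came from several pathways. WIF1, a secreted inhibitor of Wnt proteins, read 8.37, 8.55 and 8.58 on the WT line arrays and 10.22, 9.96 and 10.15 on the mutant line arrays, a difference of -1.61 ± 0.21 (limma adjusted p = 0.000538). The Wnt list as a whole had 6 of 43 lower and 0 higher with a median of -0.03, and 2 calls without mutant untreated replicate 2. HHIP, which binds and blocks Hedgehog proteins, was dim in the WT line and differed by -3.36 ± 0.59 (limma adjusted p = 0.0028). TGFB1, the growth factor TGF-beta 1, read 8.84, 9.61 and 9.19 on the WT line arrays and 10.51, 10.53 and 10.34 on the mutant line arrays, a difference of -1.25 ± 0.21 (limma adjusted p = 0.00261). IGFBP2, which binds insulin-like growth factors, differed by -1.30 ± 0.21 (adjusted p = 0.00188, limma). In the insulin and IGF list 5 of 22 were lower (22.7%) and 0 higher, against the same shares of all tested genes. This list had 1 call left without mutant untreated replicate 1 and 3 with quantile normalization. ENPP2, or autotaxin, the secreted enzyme that makes lysophosphatidic acid, read 9.27, 9.72 and 9.38 on the WT line arrays and 11.21, 11.14 and 11.33 on the mutant line arrays, a difference of -1.77 ± 0.17 (limma adjusted p = 9.75e-05). WIF1, TGFB1 and ENPP2 showed no overlap between the lines.

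Interferon-stimulated genes, which many cells raise when viral nucleic acid is sensed, were lower in the WT line in 10 of 11 calls. Of 38 tested 10 were lower (26.3%) and 1 higher (2.63%), against 6.82% and 5.84% of all tested genes. The median was -0.28, and -0.41 on the tetracycline arrays. The RNA sensor IFIH1 (MDA5) read 5.41, 6.81 and 5.88 on the WT line arrays and 8.72, 8.34 and 8.81 on the mutant line arrays, a difference of -2.59 ± 0.40 (limma adjusted p = 0.00143), and was dim in the WT line. IFI6, a mitochondrial protein induced by interferon, read 8.19, 7.98 and 7.62 on the WT line arrays and 9.43, 9.27 and 9.32 on the mutant line arrays, a difference of -1.41 ± 0.20 (limma adjusted p = 0.000907). In both genes all WT line arrays were below all mutant line arrays. OAS3, which makes the activator of the antiviral nuclease RNase L, differed by -1.25 ± 0.21, and these 3 genes gave -1.96, -0.81 and -0.68 on the tetracycline arrays. Without mutant untreated replicate 2 the list had 5 lower calls.

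The sterol and fatty acid synthesis list had 6 of 24 lower (25%) and 0 higher, against 6.82% and 5.84% of all tested genes. Its median was -0.41, and -0.69 on the tetracycline arrays. FASN, which builds fatty acids, read 11.46, 11.73 and 12.12 on the WT line arrays and 12.90, 12.78 and 12.37 on the mutant line arrays, a difference of -0.91 ± 0.20 (limma adjusted p = 0.0102), and FADS2, a desaturase, differed by -1.06 ± 0.24 (adjusted p = 0.012, limma). Without mutant untreated replicate 1 the list had 1 call, and neither FASN (-0.80, adjusted p = 0.0566) nor FADS2 (-0.93, adjusted p = 0.0651) passed. The direction of these genes was the same on the tetracycline arrays, at -1.35 and -1.21.

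Both mitochondrial lists had calls in the higher direction only. Of 34 tested subunits and assembly factors of the respiratory chain 6 were higher (17.6%) and 0 lower (median 0.21). Among 25 genes of mitochondrial translation 6 were higher (24%) and 0 lower (median 0.14). Over all tested genes 5.84% were higher and 6.82% lower. NDUFB8, a subunit of complex I, read 14.11, 13.95 and 13.92 on the WT line arrays and 13.19, 13.20 and 13.26 on the mutant line arrays, a difference of 0.78 ± 0.12 (limma adjusted p = 0.00127). Of its other tested probe sets 1 gave 0.67 and passed, and a dimmer one gave -0.33. NDUFA8, of the same complex, differed by 0.62 ± 0.11 and the mitochondrial ribosomal protein MRPS16 by 0.68 ± 0.13 (limma adjusted p = 0.00282 and 0.00491). A second MRPS16 probe set gave 0.62 ± 0.37 and did not pass (limma adjusted p = 0.295). On the tetracycline arrays the medians were 0.22 and -0.20, so the translation list did not keep its sign. The counts fell to 2 without WT untreated replicate 2 for the respiratory chain and to 1 without WT untreated replicate 1 for translation, and with quantile normalization they were 3 and 2.

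Several metabolic enzymes were higher in the WT line at very bright signals. ODC1, the first enzyme of polyamine synthesis, read 14.32, 14.17 and 14.23 on the WT line arrays and 13.18, 13.29 and 13.31 on the mutant line arrays, a difference of 0.98 ± 0.09 (limma adjusted p = 7.77e-05). MGST1, a membrane glutathione transferase, read 13.60, 13.58 and 13.45 on the WT line arrays and 12.37, 12.43 and 12.53 on the mutant line arrays, a difference of 1.10 ± 0.11 (limma adjusted p = 0.000153). In both the 3 arrays of a line lay close together and the lines were apart. PPA1, an inorganic pyrophosphatase, differed by 0.78 ± 0.09. PYCR1 and ALDH18A1, enzymes of proline synthesis on the integrated stress response list, were higher on their brightest probe sets, PYCR1 with 9.99, 11.16 and 10.64 on the WT line arrays and 9.23, 8.87 and 8.98 on the mutant line arrays and a difference of 1.57 ± 0.26, and ALDH18A1 with 0.72 ± 0.12 (limma adjusted p = 0.00205 and 0.00214). A second ALDH18A1 probe set gave 0.10 ± 0.14 (adjusted p = 0.683). Asparagine synthetase, ASNS, was higher by 0.89 ± 0.13 (limma adjusted p = 0.000914). The whole list split into 5 higher (12.8%) and 4 lower (10.3%) of 39, against 5.84% and 6.82% of all tested genes. Its median was -0.06. In the NRF2 and glutathione list 4 of 38 were higher and 5 lower, and AKR1C1, AKR1C2 and AKR1C3, neighbouring genes of very similar sequence whose probe sets may share RNA, were lower by -1.59, -1.76 and -3.52.

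Further genes at the extremes covered varied functions. FAM111B, a protease linked to DNA replication, read 6.20, 6.33 and 6.97 on the WT line arrays and 8.94, 9.32 and 9.12 on the mutant line arrays, a difference of -2.63 ± 0.26 (limma adjusted p = 0.000129). SYT11, a synaptotagmin of vesicle traffic, read 7.55, 6.97 and 7.09 on the WT line arrays and 9.51, 9.54 and 9.43 on the mutant line arrays, a difference of -2.29 ± 0.26 (limma adjusted p = 0.000329). PPP2R2B, a regulatory subunit of protein phosphatase 2A, differed by -2.46 ± 0.22, the peptide gene ENHO by -1.82 ± 0.22 and the tetraspanin TSPAN7 by -1.34 ± 0.16. The groups of these 5 genes did not overlap. TLE5, a co-repressor, and EEF1A2, a translation elongation factor of neurons and muscle, differed by -1.35 ± 0.16 and -1.43 ± 0.18. Among the higher genes EBF3, a transcription factor of neural development, read 9.53, 9.86 and 9.27 on the WT line arrays and 8.27, 7.98 and 8.19 on the mutant line arrays, a difference of 1.41 ± 0.21 (limma adjusted p = 0.00132). RPL27A, a ribosomal protein gene, and the antisense transcripts SNTG2-AS1 and DSP-AS1 were higher by 1.22 ± 0.22, 2.37 ± 0.42 and 1.34 ± 0.21. The pseudogene PDCD6P1 differed by 1.76 ± 0.16 on its brightest probe set and by 0.26 ± 0.29 on the other (adjusted p = 0.609). Signals of a pseudogene or an antisense transcript may include RNA of the related gene.

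Some calls were lost when 1 array was left out. PNPLA4, a lipase, read between 3.15 and 7.70 on the WT line arrays and between 9.01 and 9.57 on the mutant line arrays, so the WT line arrays were far apart although all lay below the mutant line. Its difference of -4.35 ± 1.19 (limma adjusted p = 0.0277) passed without WT untreated replicate 1 and failed without any one of the other 5 arrays (-3.45 to -4.50, adjusted p = 0.0737 to 0.0961). PUDP, a phosphatase (-2.14), was not called without WT untreated replicates 2 or 3 or mutant untreated replicates 1 or 3 (-1.77 to -2.13, adjusted p = 0.0524 to 0.0588). PCNX3 (-1.98) was not called without WT untreated replicate 2, where it gave -1.17, or without any one of the mutant line arrays, where it gave -1.95 to -2.02 (adjusted p = 0.0822 to 0.0961). IMMP2L, a protease of the inner mitochondrial membrane (1.25), was not called without WT untreated replicate 2, where it gave 0.81, or mutant untreated replicates 1 or 3, where it gave 1.15 and 1.23 (adjusted p = 0.0534 to 0.0766). ANKRD36B (-1.84) was not called without mutant untreated replicate 1 (-1.62, adjusted p = 0.0643). A few differences larger than that of ARMCX2 were found in genes that were dim in 1 line and under the 75th percentile in the other, and these were picked after their values were seen. PLA2G4A, the cytosolic phospholipase, differed by -5.91 ± 1.08, the transcription factor gene IKZF2 by -5.74 ± 1.08 and PABPC4L, of the poly-A binding proteins, by 5.02 ± 1.00.

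Where the genes lie separated them further. By RefSeq position 13044 of the tested genes could be ordered, and a running median over 41 neighbouring tested genes was 0.3 or more in size for at least 20 genes in a row in 16 stretches, 10 higher and 6 lower in the WT line. The thresholds were set after the values were seen, so the untreated differences inside the stretches are a description. The 10 higher stretches hold 820 genes (6.29%) and 280 of the 763 genes called higher (36.7%). The 6 lower ones hold 484 genes (3.71%) and 133 of the 890 ordered genes called lower (14.9%). The files name no genome build, so stretches are given by their first and last gene.

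The differences on the tetracycline arrays were not used to choose the stretches, and they show the same directions. Over all genes 28.2% were called on those arrays. In the higher stretches 40.6% were called higher in the WT line and 3.78% lower, in the lower stretches 4.13% higher and 30.8% lower, and outside 11.8% higher and 15.04% lower. The medians on those arrays were 0.42 in the higher stretches, -0.37 in the lower ones and -0.04 outside. The lines on those arrays are the same ones, so they repeat the lines and not the making of them.

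Chromosome 6 carried 4 of the stretches, and its genes split more than those of any other chromosome, with 162 of 705 tested genes higher and 82 lower. From DUSP22 to TPMT, the start of the short arm, 31 of 72 genes were higher and 0 lower, with a median of 0.59 (0.52 with tetracycline). From RRAGD to PDCD2, the distal long arm, 95 of 232 were higher and 1 lower, with a median of 0.49 (0.50). Between them PEX6 to BEND6 had 19 of 79 higher, with a median of 0.36 (0.42). H3C2 to HMGA1 ran the other way, with 0 of 165 higher and 71 lower and a median of -0.75 (-0.50). Set against the mean of all 12 arrays, the median of its 165 genes was -0.45, -0.36 and -0.46 on the WT line arrays and 0.33, 0.32 and 0.25 on the mutant line arrays. No array of one line reached the other.

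**Figure D3:**
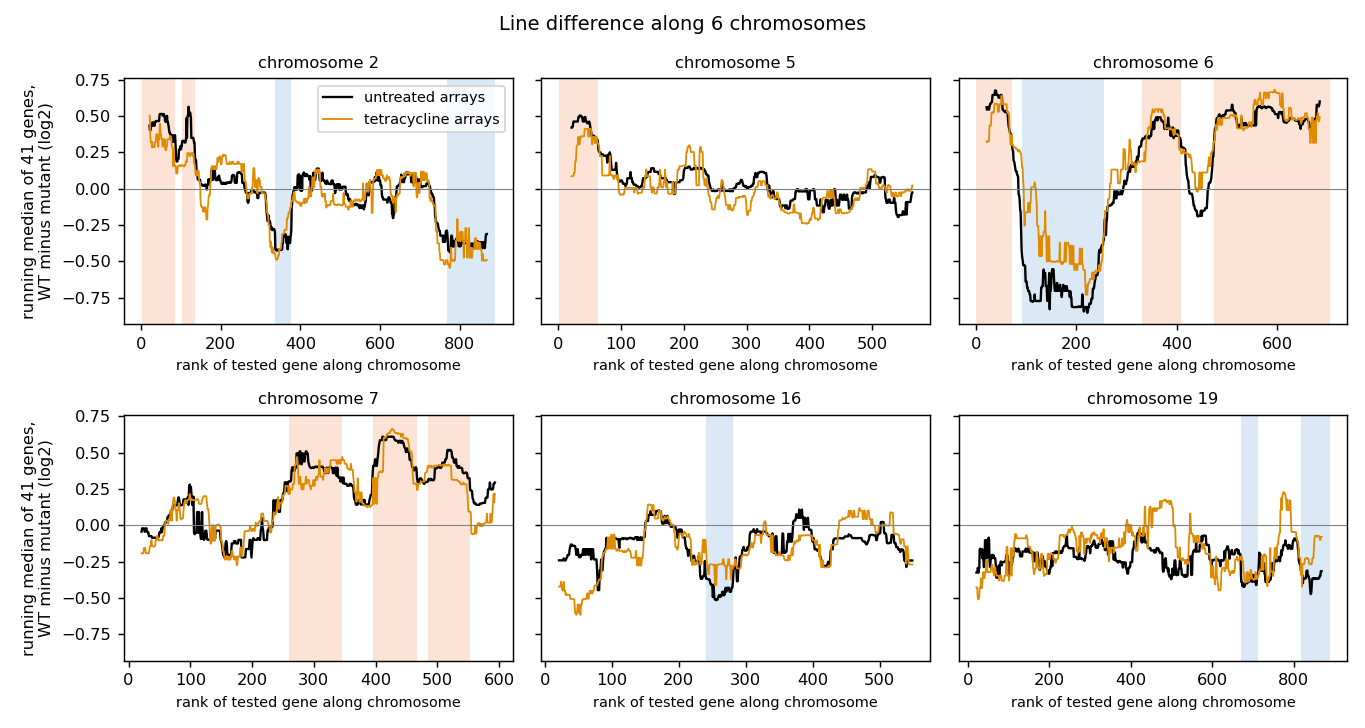
Running median of the line difference over 41 neighbouring tested genes along chromosomes 2, 5, 6, 7, 16 and 19, by gene rank, in the untreated arrays (black) and the tetracycline arrays (orange); shading marks stretches chosen on the untreated arrays, warm for higher and blue for lower in the WT line. On chromosome 6 the line falls from the stretch DUSP22 to TPMT (median 0.59) into H3C2 to HMGA1 (-0.75) and rises again to RRAGD to PDCD2 (0.49).

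Several of the leading genes belong to these stretches of chromosome 6. LIN28B, an RNA-binding protein of early embryonic cells, lies in RRAGD to PDCD2 and read 12.35, 11.66 and 12.16 on the WT line arrays and 10.64, 10.76 and 10.82 on the mutant line arrays, a difference of 1.32 ± 0.18 (limma adjusted p = 0.000714). SOD2, the mitochondrial superoxide dismutase, in the same stretch read 10.20, 10.33 and 9.52 on the WT line arrays and 8.77, 8.35 and 8.21 on the mutant line arrays, a difference of 1.57 ± 0.29 (limma adjusted p = 0.00377). Both genes were higher on each WT line array than on any mutant line array. PDCD2, at the end of that stretch, differed by 1.22 ± 0.16 on its brightest probe set (0.21 to 0.69 on 3 others) and CALHM6, a channel-like membrane protein, by 1.49 ± 0.30. NOL7, LYRM4 and DSP in DUSP22 to TPMT differed by 1.06 ± 0.13, 0.91 ± 0.11 and 1.19 ± 0.19. Another NOL7 probe set gave 1.11 ± 0.14 and passed, while a dimmer one gave 0.38 ± 0.35 and did not. A second LYRM4 probe set gave 0.65 ± 0.22 and did not pass (limma adjusted p = 0.064). PSMG4, a proteasome assembly factor of the same stretch, differed by 1.53 ± 0.23 untreated but 0.09 with tetracycline, and a second tested probe set of it gave -0.06 ± 0.36. VEGFA, the vascular growth factor, lies in PEX6 to BEND6 and differed by 1.06 ± 0.20 (limma adjusted p = 0.00463) on its brightest probe set. Its 3 other tested probe sets gave 0.01, -0.16 and 0.37 and did not pass.

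The stretch H3C2 to HMGA1 holds the main histone gene cluster and the major histocompatibility complex (MHC). MHC proteins present peptides to T cells, class I on nearly all cells and class II mostly on immune cells. Of 19 tested genes of the MHC and antigen presentation list 8 were lower (42.1%) and 0 higher, against 6.82% and 5.84% of all tested genes. The median was -0.55. All 8 lie in this stretch, while 12 of the 19 tested lie in a stretch and 12 on chromosome 6. The class II chain HLA-DPA1 read 10.04, 10.55 and 10.10 on the WT line arrays and 12.18, 12.22 and 12.09 on the mutant line arrays, a difference of -1.93 ± 0.16 (limma adjusted p = 4.28e-05), and its 2 further tested probe sets gave -1.97 and -2.89. HLA-DMA, which loads class II molecules, read 7.16, 7.18 and 7.06 on the WT line arrays and 8.60, 8.73 and 8.76 on the mutant line arrays, a difference of -1.56 ± 0.20 (limma adjusted p = 0.00054). HLA-G, a class I gene, read 10.69, 11.05 and 11.24 on the WT line arrays and 12.37, 12.35 and 12.28 on the mutant line arrays, a difference of -1.34 ± 0.17 (limma adjusted p = 0.000535). All 3 were lower on every WT line array. HLA class I genes resemble each other, so their probe sets may share RNA. B2M, the class I partner encoded on chromosome 15, differed by 0.21 (adjusted p = 0.292) and did not pass. With tetracycline HLA-DPA1 kept its difference, -1.89, while HLA-DMA and HLA-G gave -0.15 and -0.50.

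Genes of other roles in the same stretch were lower as well. AGPAT1, an enzyme of phospholipid synthesis, read 10.43, 10.16 and 10.67 on the WT line arrays and 11.69, 11.82 and 11.62 on the mutant line arrays, a difference of -1.29 ± 0.15 (limma adjusted p = 0.000313). PRRC2A, an RNA-binding protein gene within the MHC, read 9.96, 9.73 and 10.44 on the WT line arrays and 11.58, 11.71 and 11.84 on the mutant line arrays, a difference of -1.67 ± 0.20 (limma adjusted p = 0.000444). The lines did not overlap in either. The death effector BAK1 differed by -1.11 ± 0.19, the zinc transporter SLC39A7 by -1.10 ± 0.22 and the histone methyltransferase EHMT2 by -1.21 ± 0.26. Of the 26 tested histone genes 6 were lower (23.1%) and 0 higher, against 6.82% and 5.84% of all tested genes. Their median was -0.93. Of the 6 calls 5 lie in this stretch, while 24 of the 26 tested lie in a stretch and 24 on chromosome 6. On the tetracycline arrays the histone median was 0.31, and the count was 1 without any one of the mutant line arrays and 4 or more without any one of the WT line arrays.

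The long arm of chromosome 7 held 3 higher stretches. The shares of all tested genes to set beside their counts are 5.84% higher and 6.82% lower. From MDH2 to ZNF655 26 of 88 genes were higher (29.5%) and 0 lower, with a median of 0.41 (0.35 with tetracycline). From CUX1 to ARF5 31 of 73 were higher and 1 lower, at 0.54 (0.60), and from SMKR1 to GHET1 16 of 68 were higher and 2 lower, at 0.42 (0.40). ASNS, given above, and the cell cycle kinase CDK6 lie in MDH2 to ZNF655. CDK6 read 11.40, 11.26 and 11.23 on the WT line arrays and 10.48, 10.49 and 10.56 on the mutant line arrays, a difference of 0.79 ± 0.13 (limma adjusted p = 0.00188) without overlap, and 0.19 with tetracycline. Of its 5 other tested probe sets 1 passed, at 0.72, and the others gave 0.27, -0.21, -0.49 and -0.92. BAIAP2L1, an adaptor that bends membranes and lies there too, differed by 1.28 ± 0.21 on its brightest probe set. Another of its probe sets gave 0.62 ± 0.18 and passed (limma adjusted p = 0.0333), while a dimmer one gave -0.34 ± 0.22 and did not. REPIN1, a zinc finger gene of chromosome 7, differed by 1.02 ± 0.12 on its brightest probe set and by -0.96 ± 0.36 on the other (adjusted p = 0.0932).

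Chromosomes 2, 5, 10, 16 and 19 held the other stretches. Their counts stand beside 5.84% higher and 6.82% lower among all tested genes. On chromosome 2 both ends differed, with FAM110C to CIMIP2C higher in 28 of 86 genes (median 0.46, 0.36 with tetracycline) and BCS1L to LINC01881 lower in 32 of 120 (-0.37, -0.48). ODC1 and SNTG2-AS1, given above, lie in the first of these, and ITM2C, a membrane protein expressed in brain, in the second at -1.09 ± 0.14. MPV17 to SLC30A6 was higher (0.56, 0.25) and SH2D6 to DUSP2 lower (-0.37, -0.31). On chromosome 5 PLEKHG4B to DNAJC21 was higher in 19 of 63 genes (0.42, 0.29), with ZNF622 at 0.83 ± 0.13 and PDCD6P1, given above. The short stretch FAM149B1 to KCNMA1 on chromosome 10 was higher (0.34, 0.34), although KCNMA1 itself was lower. TUFM to ZNF688 on chromosome 16 was lower (-0.47, -0.27). Its calls, 4 of 42 genes lower (9.52%) and 2 higher (4.76%), were near the shares of all tested genes. Relative to all tested genes the median of that stretch was -0.45, and -0.21 with the filter at the 75th percentile.

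Chromosome 19 had the largest share of lower calls among the chromosomes. Of its 888 tested genes 119 were lower (13.4%) and 10 higher (1.13%), with a median of -0.23, and -0.15 with tetracycline. Its 2 stretches, DACT3 to PPP1R15A and HSPBP1 to CENPBD2P, had medians of -0.39 and -0.36. Many of its genes encode zinc finger proteins of the ZNF family, DNA-binding proteins of which many silence transposable elements. Over all chromosomes 33 of 398 tested ZNF genes were lower (8.29%, against 6.82% of all tested genes) and 4 higher (1.01%, against 5.84%), with a median of -0.21 untreated and -0.05 with tetracycline. ZNF93 read 9.22, 8.89 and 8.98 on the WT line arrays and 10.44, 10.32 and 10.05 on the mutant line arrays, a difference of -1.24 ± 0.18 (limma adjusted p = 0.000894), and ZNF580 differed by -1.37 ± 0.20. ZNF93 was lower on every WT line array.

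**Figure D4:**
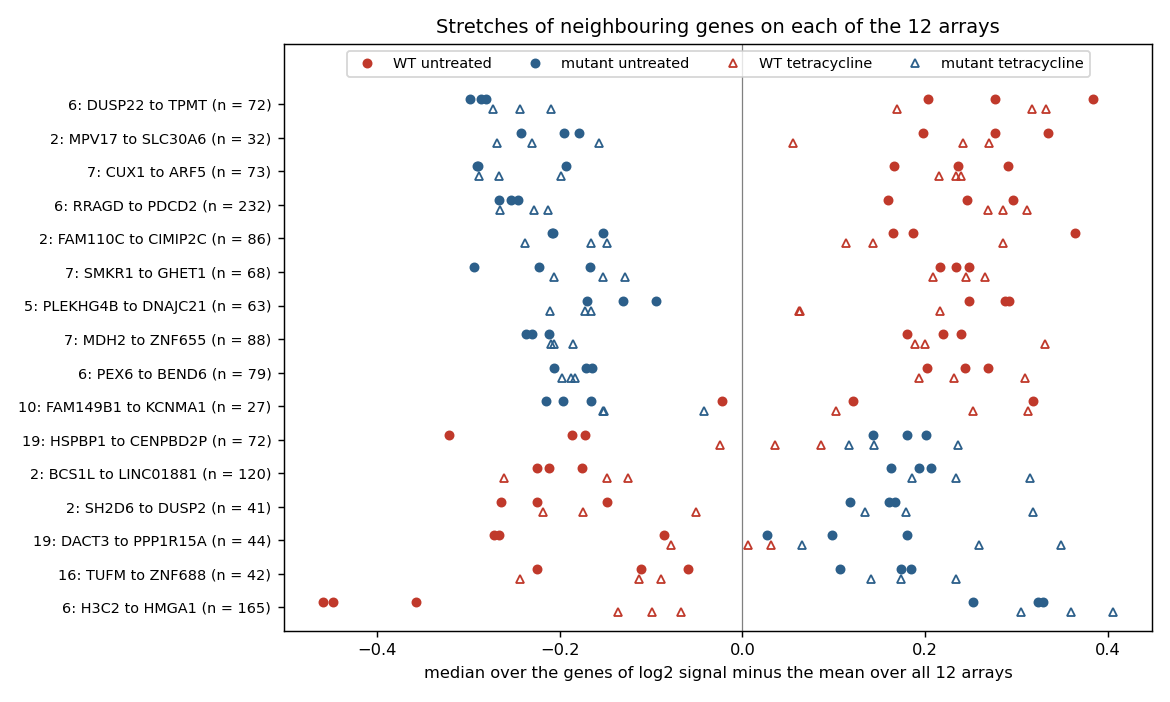
Median over the genes of each of the 16 stretches of the log2 signal minus its mean over all 12 arrays, 1 point per array, circles untreated and triangles with tetracycline, red the WT line and blue the mutant line. In H3C2 to HMGA1 the WT line arrays without tetracycline lie between -0.46 and -0.36 and the mutant line arrays between 0.25 and 0.33.

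Genes with at least 4-fold differences lay in the stretches about as often as all ordered genes, called or not. Of 79 such genes 71 were lower in the WT line, and 8 of the 79 (10.1%) lie in a stretch of either direction, against 10.0% of all ordered genes. Among called genes of any size, 36.7% of the higher ones lie in higher stretches and 14.9% of the lower ones in lower stretches. SPARC, ARMCX2, CHRDL1 and PNMA8A are among the 4-fold genes outside.

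Most genes called untreated kept their direction on the tetracycline arrays. Of the 1654 genes called untreated 1559 (94.3%) differed in the same direction there. The share with the same direction over all tested genes was not computed. In the same direction 1053 were called, 63.7% of the untreated calls and 28.6% of the 3688 genes called with tetracycline. Over all tested genes 28.2% were called with tetracycline, in either direction. Both comparisons share 1 spread per probe set, so their calls are not independent. Only 5 were called in opposite directions, which were H2BC12L, LGALS1, MRPS25, OGFOD3 and SERPINE2. LGALS1, a galectin that binds sugars on the cell surface, differed by -0.87 ± 0.19 untreated and 1.03 with tetracycline, and OGFOD3, of an oxygenase family, by 1.02 ± 0.25 and -1.34. Its other tested probe sets gave 0.69 and -0.21 untreated and did not pass. Of the 5, only LGALS1 was called untreated in all 6 fits that leave out 1 untreated array; OGFOD3 was called in 3, H2BC12L in 1, MRPS25 in 5 and SERPINE2 in 0. The test of a difference between both line differences was called for 19 genes, 3 of which were also called untreated.

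**Figure D5:**
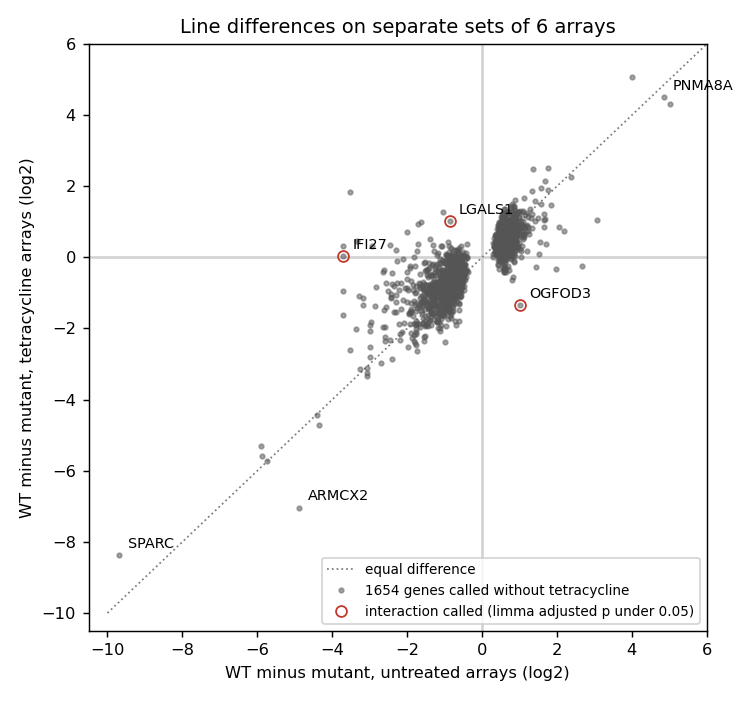
Line difference (WT minus mutant, log2) of the 1654 genes called untreated, on the 6 untreated arrays (horizontal) and on the 6 tetracycline arrays (vertical), 1 point per gene; the dotted line marks equal differences and red circles the 3 genes called in the test of the difference between them. SPARC lies at -9.69 and -8.37, near that line, and IFI27 at -3.70 and 0.03.

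IFI27, an interferon-induced protein, was called in that test and in the untreated lines. Untreated it read 3.62, 3.88 and 2.72 on the WT line arrays and 6.75, 7.02 and 7.55 on the mutant line arrays, dim in the WT line, with a difference of -3.70 ± 0.43 (limma adjusted p = 0.000347). With tetracycline the lines differed by 0.03, and the test of the change in that difference gave an adjusted p of 0.0405, or 0.0407 to 0.157 when any 1 untreated array was left out. All WT line arrays without tetracycline were below all mutant line arrays without it.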

How the data were processed

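Total RNA of the lines had been labelled with biotin and hybridised to Affymetrix arrays, per the labels' protocols. The deposited values are MAS5 signals, an intensity per probe set and linear in scale. MAS5 is named in the submitters' processing notes, and its settings are not given in the sources used here. The mean after trimming 2% at each end was about 500 on all 12 arrays, so the deposited intensity was already scaled per array. Values under 1 (2211, or 0.337%) were raised to 1 before taking log2. The 62 AFFX controls were left out of tests.

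All 12 arrays entered 1 limma 3.58.1 fit (R 4.3.3) with a mean per group and eBayes with trend, and the contrast of the untreated lines was adjusted by Benjamini-Hochberg over 29553 probe sets. All groups share 1 spread per probe set. Of the probe sets 41091 carried 1 gene symbol by the platform annotation, 1801 several and 11721 none, and symbols were updated through RefSeq for 41037. A gene was read from the probe set with the highest mean over all arrays. Of 527 genes with several called probe sets 37 had calls in opposite directions. Of 80 followed genes with other tested probe sets 20 had at least 1 of opposite sign. Genes given with values were taken from the following sets, and not every member of a set is given. The first holds the 15 largest differences per direction with groups apart and 1 group above the 75th percentile (8.92). The second holds the 8 smallest p per direction among genes above that percentile in both lines. The others are up to 4 called members per gene list, and TRPM7. Genes beyond these rules are named as such or as all called members of a list or stretch. Members and lists were chosen with earlier results of these data known. Not every list that was counted is described. Between the 2 untreated groups, arrays of the same replicate number did not move together (correlations of deviations 0.0806, 0.015 and 0.0182). Whether replicate numbers pair the untreated with the tetracycline arrays of a line was not tested. The fit and its interaction term use no such pairing. In simulated data of this size 67, 67 and 66 of 29553 probe sets were changed by 0.5, 1 and 2. Recovery of these changes was 1.49%, 32.8% and 75.8%, and 3.95% of calls were false. Far fewer probe sets were changed there than were called in the real data, which makes the adjusted threshold stricter. Alternatives were other filters, an offset of 16, quantile normalization, no trend, only the untreated arrays, array weights, a replicate block and leaving out arrays. Figures were drawn with matplotlib 3.10.9.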

Additional observations from a re-analysis of the deposited data

Results flagged for a closer look

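For 3 genes called in the untreated lines the difference between lines itself differed between the untreated and the tetracycline arrays, by the interaction term of the limma fit with n = 3 arrays per group. IFI27 differed by -3.70 untreated and 0.03 with tetracycline (interaction adjusted p = 0.0405). LGALS1 differed by -0.87 and 1.03 (interaction adjusted p = 0.0329), and OGFOD3 by 1.02 and -1.34 (interaction adjusted p = 0.0329). Leaving out 1 untreated array at a time gave interaction adjusted p-values of 0.0407 to 0.157 for IFI27, 0.0302 to 0.157 for LGALS1 and 0.0407 to 0.157 for OGFOD3, and each was called in 2 of the 6 fits.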

How the results depend on the processing

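As deposited 3807 probe sets were called. Another 8 settings that keep all 6 untreated arrays gave 2960 to 4889, the replicate block 4516 among them, and 160 of 160 followed genes kept their call or lack of one under that block. Leaving out 1 array gave 1611 to 3804 probe sets, 293 to 713 genes higher and 397 to 907 lower. Without the replicate 3 arrays of all groups the counts were 1638, 255 and 404, and without the variance trend 462 genes were higher. TRPM7 turned sign without WT untreated replicate 1 (-0.0349) and without the replicate 3 arrays (-0.0618), and reached 0.250 without WT untreated replicate 2. Of 2551 values of single genes and lists under these settings, 2110 were the same, 435 weaker, 4 stronger and 2 reversed. A gene counted as the same if it kept its direction and side of the threshold, and as weaker if its call was lost. A list counted as the same if its number of called members stayed close to the main one. No followed gene gained a call, so the 4 stronger values are list counts. Medians of chromosomes and stretches, relative to all tested genes, kept their sign and moved as follows. With quantile normalization chromosome 10 gave 0.147, 16 -0.0649 and 19 -0.173, and the stretches from MPV17 0.475, BCS1L -0.397, PLEKHG4B 0.362, PEX6 0.433, H3C2 -0.664, MDH2 0.487, CUX1 0.480, TUFM -0.361, DACT3 -0.271 and HSPBP1 -0.236. With the filter at the 75th percentile chromosome 6 gave 0.311 and 16 -0.0926, and the stretches from SH2D6 -0.417, BCS1L -0.383, PEX6 0.448, H3C2 -0.815, MDH2 0.472 and TUFM -0.207. Without the replicate 3 arrays, an alternative added after the data were seen for the stretches, those from MPV17 gave 0.492, BCS1L -0.405, PLEKHG4B 0.360, PEX6 0.438, MDH2 0.454 and HSPBP1 -0.420. The cause of these shifts was not tested. In simulation 67 probe sets were changed by 0.5, and 1.49% of them were recovered. The simulation changed far fewer probe sets than the 3807 called here, which makes its adjusted threshold stricter. It therefore does not give the share of small differences missed in these data. With 3 arrays per group, small differences can still be missed.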
